A study of Mus musculus with 9 samples.

Results

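Chemokine ligands and their receptors were followed through 9 RNA sequencing libraries from mouse kidney and muscle. The genes were taken by symbol alone: all Cxcl, Ccl, Cx3cl1 and Xcl1 ligands, all Cxcr, Ccr and Cx3cr1 receptors and the atypical receptors Ackr1 to Ackr4. This gave 60 of the 24421 genes in the tables, of which 24 are CC ligands, 13 CXC ligands, 1 a CX3C ligand, 1 an XC ligand, 17 signalling receptors and 4 atypical receptors. In at least 1 library, 42 of the 60 had 30 or more counts, while 2 others (Ccl26 and Cxcl15) had 0 counts in every library. The study concerns cachexia, the loss of muscle and fat in cancer, and the uptake of LRP6, a Wnt co-receptor, driven by its secreted inhibitor DKK1. Kidney was sampled with PBS in tumour-bearing mice (1 library) and wild type mice (1). Muscle was sampled in wild type mice with PBS (2 libraries) or DKK1 (1), in tumour-bearing mice with PBS (1) or MDC (1), and in mice labelled beta-arrestin knockout with PBS (1) or DKK1 (1). The labels give MDC by its letters alone, and do not name the tumour, the muscle, the strain or age of the mice, the dose or time of an agent, or which beta-arrestin gene was deleted.

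Chemokines are small secreted proteins that guide leukocytes along concentration gradients, and most of them bind G protein-coupled receptors on the moving cell. The CXC ligands Cxcl1, Cxcl2, Cxcl3 and Cxcl5 act on Cxcr2 and draw neutrophils, and Ccl2 and Ccl7 act on Ccr2 and draw monocytes. Cxcl9 and Cxcl10 act on Cxcr3 and draw activated T cells. Ccl19 and Ccl21 act on Ccr7 and place T cells and dendritic cells in lymphoid tissue. Atypical receptors bind chemokines without G protein signalling and take them up or carry them across endothelium, and beta-arrestins take part in the uptake of many chemokine receptors after ligand binding.

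Levels are CPM (counts scaled to the size of the library) after TMM scaling within a tissue, which sets libraries to a common trimmed mean of log ratios. Total counts were from 21358854 to 32607835 in muscle, and 42480786 (wild type) and 44421797 (tumour) in kidney. The knockout label was not seen in the counts of the beta-arrestin genes: in the libraries that carry it Arrb1 was at 20.5 CPM (PBS) and 28.2 CPM (DKK1), against 17.3 and 20.3 CPM in wild type PBS, and Arrb2 was at 9.61 and 7.98 CPM against 7.59 and 7.85 CPM. An exon can be lost without a lower count for its gene, so these values do not check the deletion. Skeletal muscle markers summed to between 80990 and 249300 CPM in muscle, and kidney tubule markers to 35030 and 18300 CPM in wild type and tumour kidney. The lower sum in tumour kidney came from Kap, at 2680 CPM against 23830 CPM in wild type. Of the 10 tubule markers, Kap was the 1 at least 2-fold lower, and 2 (Aqp2 and Umod) were at least 2-fold higher. Their median log2 change was 0.28. The names of the tables carry a letter: A for kidney, B for wild type library 1 and the muscle of tumour-bearing mice, and C for the 4 remaining muscle libraries (wild type library 2, wild type DKK1 and the pair labelled knockout). A difference between groups that lie in different sets cannot be told apart from the set. The labels do not say whether the 2 wild type muscle libraries come from separate mice. A p value thus measures only the spread between these samples, which may be technical. This pair spans sets B and C, so its spread also holds any difference between the sets. The same spread serves in tests within a set, such as MDC against PBS, where 0 calls may reflect it. With tissue as the material, fewer cells of a type and less RNA per cell cannot be told apart.

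The wild type PBS pair stood apart on many of these genes, and this sets what muscle comparisons can show. Of 28 chemokine and receptor genes with 30 or more counts in the higher library, 13 were at least 2-fold higher in library 2 and 5 at least 2-fold lower, where 17.6% and 12.4% of all genes were. Scaling by total counts gave 15 and 3. Monocyte receptors were among the higher genes: Cx3cr1 was at 2.57 CPM in library 2 and 0.375 CPM in library 1, Ccr2 at 11.7 and 2.02 CPM, and Ccr1 at 2.57 and 0.562 CPM. The ligands Ccl6, Ccl9, Ccl2, Cxcl12, Cxcl14 and Ccl27a and the receptor Cxcr4 were also higher there. So were Ccl21b and its copy Ccl21c, which may share reads. Lower in library 2 were Cxcr5 (0.175 against 1.64 CPM), the mucosal ligand Ccl28 (0.436 against 2.34 CPM), Ccl22, Ackr2 and Ccl8. Macrophage and monocyte markers were higher in library 2 for 13 of 14 genes (711 against 131 CPM in sum). The 1 other, Ly6c2, was lower (1.09 against 4.87 CPM). Fibroblast markers were higher in library 2 for 5 of 9 (1164 against 582 CPM) and adipocyte markers for 6 of 7 (median log2 change 3.02). Interferon response genes were lower in library 2 for 8 of 15 (median log2 change -1.45), with the GTPase Igtp at 17.4 against 503 CPM. Kidney tubule markers were lower in library 2 for 6 of 6 genes with 30 counts (7.55 against 83.8 CPM). The part of these genes in the chemokine differences was not tested.

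By set letter, Ccl21b, Ccl21c, Ccl27a and Cx3cl1 were higher in each of the 4 muscle libraries of set C than in each of the 3 of set B, and Ccl8 and Cxcr5 were lower. That is 4 and 2 of 36 genes (11.1% and 5.56%), against 15.6% and 19.0% of all genes. Ccl21b separated most widely together with its copy Ccl21c: it was between 34.0 and 39.1 CPM in set C and between 2.73 and 8.20 CPM in set B. The Ccl21 and Ccl27 genes on chromosome 4 are near-identical copies. Ccl21a had the same counts as the predicted gene Gm1987 in every library, Ccl21c as Gm13304, and Ccl27b as Gm13306. Reads of these genes may be split or shared between copies, so their values are uncertain, and Ccl21c has no single position in the annotation.

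Per length, the 2 tissues were led by different ligands. On the deposited RPKM scale, Cxcl14, a ligand made by epithelial and stromal cells, was the highest chemokine gene in each of the 7 muscle libraries, at 17.7 RPKM (wild type library 1) to 154 RPKM (wild type DKK1). Ccl11, the eosinophil attractant eotaxin, and Cxcl12, the ligand of Cxcr4, were among the top 4 in each muscle library. Ackr3, which scavenges Cxcl12, was at 6.97 to 28.0 RPKM in muscle. Kidney was led by Cxcl16, a membrane-anchored ligand of Cxcr6, at 50.4 RPKM in wild type and 48.9 RPKM in tumour. Cx3cl1 (fractalkine, the membrane-anchored ligand of Cx3cr1) was at 19.0 and 21.8 RPKM, Cxcl12 at 17.5 and 14.5 RPKM, and Ackr3 at 12.2 and 38.8 RPKM.

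**Figure D1:**
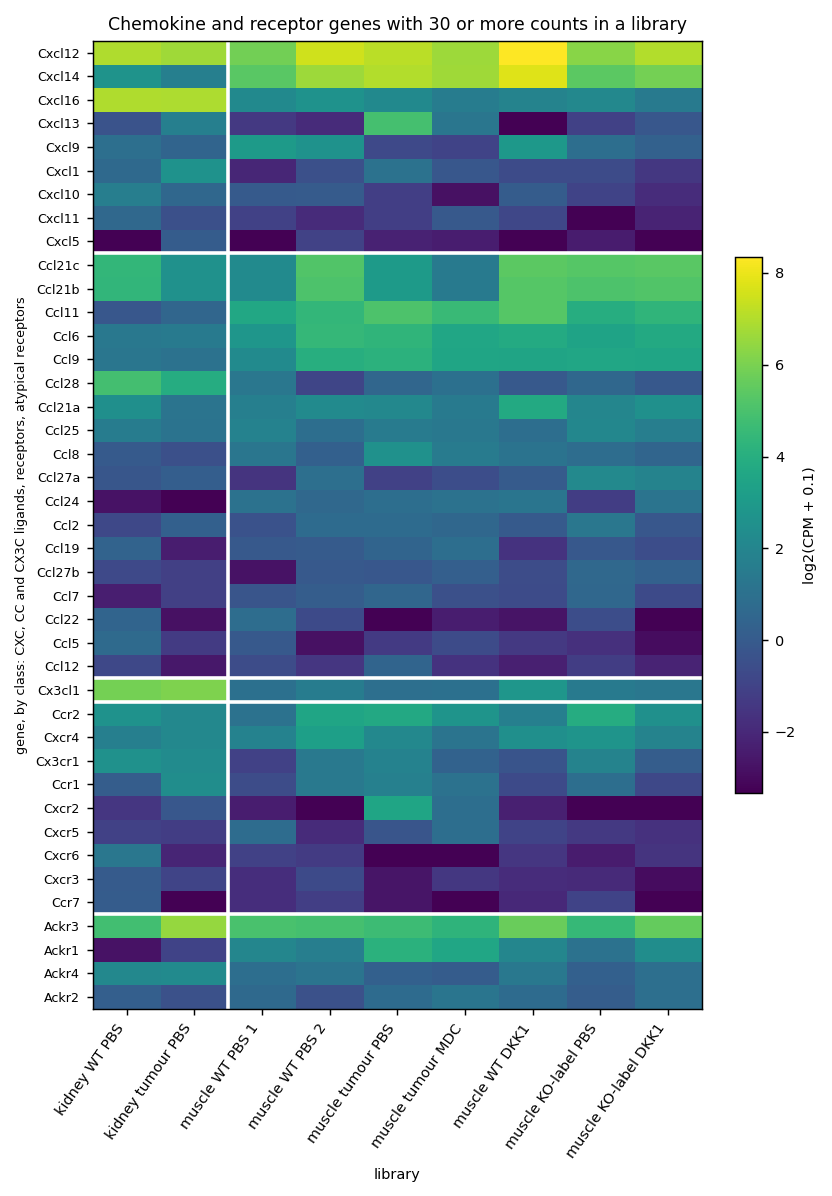
Heat map of log2(CPM + 0.1) for 41 of the 42 chemokine and receptor genes with 30 or more counts in a library. Columns are the 9 libraries, with the 2 kidney libraries left of the white line, and rows are genes grouped by class. Cxcl12 and Cxcl14 are bright across muscle, Cxcl16 and Cx3cl1 are bright in kidney, and Cxcl13 and Cxcr2 stand out in the muscle tumour PBS column.

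The tissues were compared with edgeR's quasi-likelihood test on all 9 libraries, with CPM scaled over all 9. Of 48 genes tested, 5 passed an adjusted p of 0.05 (Benjamini-Hochberg), against 13.2% of all 16811 genes. Cxcl16 was at 94.3 CPM in wild type kidney against 4.79 and 6.50 CPM in the 2 wild type muscle libraries (edgeR log2 difference 4.06, SE 0.61, adjusted p = 0.00375). Cx3cl1 was at 45.7 CPM against a muscle mean of 2.57 CPM (4.15, SE 0.71, adjusted p = 0.00644). Lower in kidney were Ackr1, the atypical receptor of venules and red cells (0.036 against 3.75 CPM, adjusted p = 0.0163), Ccl11 (0.612 against 18.0 CPM, adjusted p = 0.00803) and Cxcl14 (4.84 against 74.7 CPM, adjusted p = 0.0208). For each of these genes the kidney library lay outside both muscle libraries, which their selection by this test makes likely. By size alone, at least 2-fold against each muscle library with 30 or more counts, 6 of 36 genes were higher in kidney and 7 lower, where 24.9% and 15.5% of all genes were. The other genes past that rule were Ccl28, Cxcr6, Cxcl11 and Cxcl10 (higher) and Ccl24, Ccl6, Cxcl9 and Ccl9 (lower). Scaling by total counts gave 10 higher and 6 lower, and leaving out muscle library 1 or 2 gave 22 and 24 genes in all. Ccl28 was at 22.2 CPM against 1.47 CPM (edgeR adjusted p = 0.0594). Fibroblast markers were lower in kidney for 7 of 9 genes, T and NK cell markers higher for 5 of 6 and dendritic cell markers higher for 4 of 9, and the part of these cells was not tested.

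Promoter sequence is shown for 3 ligands of Cxcr2 and 1 of Cxcr3. By the size rule Cxcl1 was higher in tumour muscle and tumour kidney, and Cxcl10 was lower in tumour kidney. Cxcl2 and Cxcl3, neighbours of Cxcl1, stayed under 30 counts in every library. Sequences are the 250 bases before the RefSeq transcription start on build GRCm38.p6, 5′ to 3′ on the strand of the gene. Capitals mark matches to the NF-kB motif (GGGA and TTCC with any 2 bases between) and, in Cxcl10 at its left end, to the interferon-stimulated response element (GAAA and GAAA with any 2 bases between). Cxcl1, Cxcl2, Cxcl3 and Cxcl5 lie within 90759360 to 90905938 of chromosome 5, and Cxcl9 and Cxcl10 within 92321347 to 92348889. The windows are chr5:90890995-90891244 (Cxcl1, plus strand), chr5:90903649-90903898 (Cxcl2, plus strand), chr5:90785851-90786100 (Cxcl3, plus strand) and chr5:92348890-92349139 (Cxcl10, minus strand).
Cxcl1: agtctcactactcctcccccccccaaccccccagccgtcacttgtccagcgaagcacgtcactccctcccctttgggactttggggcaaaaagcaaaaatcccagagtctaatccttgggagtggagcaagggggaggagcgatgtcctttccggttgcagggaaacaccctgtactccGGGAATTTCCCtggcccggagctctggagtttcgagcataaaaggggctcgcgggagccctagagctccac
Cxcl2: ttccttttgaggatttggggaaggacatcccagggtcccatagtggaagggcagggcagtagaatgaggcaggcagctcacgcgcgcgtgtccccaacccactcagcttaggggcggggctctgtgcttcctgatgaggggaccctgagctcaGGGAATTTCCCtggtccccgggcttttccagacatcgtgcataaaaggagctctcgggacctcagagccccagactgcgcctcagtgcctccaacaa
Cxcl3: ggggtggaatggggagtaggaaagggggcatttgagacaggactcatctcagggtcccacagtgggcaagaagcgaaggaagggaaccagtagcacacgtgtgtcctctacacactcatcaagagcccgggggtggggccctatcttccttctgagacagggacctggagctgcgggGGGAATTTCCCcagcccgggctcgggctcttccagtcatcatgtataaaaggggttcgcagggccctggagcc
Cxcl10: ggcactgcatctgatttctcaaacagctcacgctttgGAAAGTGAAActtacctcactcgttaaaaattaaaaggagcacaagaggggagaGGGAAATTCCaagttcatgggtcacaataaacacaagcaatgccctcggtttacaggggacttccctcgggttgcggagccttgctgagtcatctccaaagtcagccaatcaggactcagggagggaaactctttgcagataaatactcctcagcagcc
The first 3 promoters hold the same run, GGGAATTTCCC, which begins 71 (Cxcl1), 97 (Cxcl2) and 73 (Cxcl3) bases before the start and matches the motif on both strands with overlap. In Cxcl10 the NF-kB match covers bases 159 to 150 before the start and the interferon match bases 213 to 204. Searched on both strands, the NF-kB letters were in the promoters of 6 of the 44 genes with an entry (the others were Ccr3 and Ccl1) and in 1.21% of all 32851 promoters. The interferon letters were in 3 of 44 (Cxcl10, Cxcl14 and Ccl19) and in 2.98% of all, and the GAS motif TTCNNNGAA in 3 of 44 (Ccl17, Cxcl14 and Ccr6) and in 7.02%. For the 44 genes the first entry alone was searched, while the shares of all promoters count every entry. Cxcl5 is among the 16 genes with no entry. Windows of Cxcl9 and Cxcl13 held none of the 3 motifs. A match is a description of these letters and does not show that a factor binds there.

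In muscle, the tumour comparison sets the PBS library of tumour-bearing mice against the wild type PBS pair. The labels do not give the site of the tumour. Tumour PBS muscle held more RNA of the B cell attractant Cxcl13 and of the neutrophil receptor Cxcr2 and its ligand Cxcl1 than either wild type library. It also held more of the chemokine-binding receptor Ackr1 and of the CC ligands Ccl8 and Ccl12. Less RNA was found of the T cell attractant Cxcl9 and of Ccl22, a ligand of Ccr4 made by dendritic cells and macrophages. These 6 higher and 2 lower genes were those at least 2-fold apart from each wild type library with 30 or more counts, of 34 genes that reached 30 counts. Among all genes 2.00% were higher and 1.19% lower by this rule. The median log2 change of the 34 genes was 0.48, and that of all genes 0.04.

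Cxcl13 had 1028 counts in tumour PBS muscle and 6 and 4 in the wild type libraries. That is 30.2 CPM against 0.228 ± 0.0754 CPM (SD, n = 2), with log2 changes of 6.43 and 6.95 against the 2 libraries. This 1 tumour library lay above both wild type libraries, and no other muscle library exceeded 2.28 CPM. In edgeR's quasi-likelihood test the log2 change was 7.03 (SE 1.03, adjusted p = 0.0579), which missed the threshold of 0.05. Cxcl13 recruits B cells, whose 9 markers summed to 4.12 CPM in this library and to 2.25 and 2.36 CPM in wild type, and only Jchain of them reached 30 counts. Markers of lymphatic vessels and of lymphoid stroma, the latter a known source of Cxcl13, summed to 26.3 CPM against 15.3 and 38.6 CPM. The part of these cells in the Cxcl13 difference was not tested.

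Cxcr2 had 396 counts in tumour PBS muscle against 2 and 0. At 11.6 CPM it was 124-fold higher than in wild type library 1 (95% counting interval 34.2 to 1029) and at least 89.0-fold higher than in library 2 (edgeR adjusted p = 0.201). Cxcl1 followed with 68 counts against 3 and 14, or 2.00 CPM against 0.141 and 0.611 CPM. Of the other Cxcr2 ligands, Cxcl5 had 4 counts against 0 and 9, and Cxcl2 and Cxcl3 had 0 in all 3 libraries, so Cxcl1 was the Cxcr2 ligand of this family that reached 30 counts. Ppbp, a platelet ligand of Cxcr2 outside the symbol rule, was at 2.71 CPM against 0.328 and 0.131 CPM.

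Neutrophil markers moved with Cxcr2: 14 of 14 with 30 counts were higher, and the 15 in the table summed to 368 CPM against 14.8 and 10.9 CPM. Mpo and Elane, which define neutrophil precursors, were at 1.65 and 0.647 CPM in tumour PBS muscle and at 0 in both wild type libraries. The part of these cells in the result was not tested. Macrophage and monocyte markers summed to 378 CPM, between the wild type values of 131 (library 1, same set) and 711 CPM (library 2). Ly6c2 was the 1 gene of 14 past the rule. Of the monocyte receptors, Ccr2 was at 12.9 CPM against 2.02 CPM in library 1 and 11.7 CPM in library 2. Cx3cr1 was at 3.47 CPM against 0.375 and 2.57 CPM, and Ccr1 at 3.26 CPM against 0.562 and 2.57 CPM. They were thus well above the library of the same set but not past the rule.

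Ackr1 had 598 counts against 85 and 70, or 17.6 CPM against 3.98 and 3.05 CPM (mean log2 change 2.31). Tumour PBS was the highest of the 7 muscle libraries and tumour MDC the next. Erythroid markers summed to 1295 CPM against 331 and 325 CPM, and of the blood endothelial markers Plvap and Cldn5 were higher (2 of 10). Their part in the result was not tested. Ccl8 was at 5.85 CPM against 2.30 and 1.09 CPM and Ccl12 at 1.24 CPM against 0.562 and 0.262 CPM. Both lie in the chromosome 11 cluster (82035571 to 82116799) that also holds Ccl2, Ccl7 and the eosinophil attractant Ccl11. Its other genes were not past the rule. Ccl2 was at 1.59 CPM against 0.656 and 1.57 CPM, and Ccl7 at 1.32 CPM against 0.750 and 1.00 CPM. Ccl11 was at 33.7 CPM against 12.6 and 21.1 CPM.

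Cxcl9 had 17 counts in tumour PBS muscle against 174 and 141, or 0.50 CPM against 7.15 ± 1.42 CPM (SD, n = 2; mean log2 change -3.65). Cxcl10, induced by the same interferons, was at 0.353 CPM against 0.890 and 0.916 CPM on counts of 12, 19 and 21, too few for the rule. Ccl22 had 0 counts against 36 and 12, at least 19.1-fold and 5.94-fold lower. Of 15 interferon response genes 1 (Ifit3) was lower than in both wild type libraries, which themselves differ at least 2-fold in 8 of the 15. The median log2 change of the 15 was -0.78, and their part in the Cxcl9 difference was not tested. Cxcr3, the receptor of Cxcl9, had 2 counts against 4 and 12. T and NK cell markers summed to 1.94 CPM against 1.55 and 4.01 CPM, Cd3e was the 1 of 12 with 30 counts and was lower, and their part in the Cxcl9 difference was not tested.

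Beside the ligands, 6 of 30 genes of receptor signalling and leukocyte adhesion were higher and none lower by the size rule. They include the endothelial selectins Selp (28.9 CPM against 1.92 and 1.35 CPM) and Sele (2.38 CPM against 0.0937 and 0.218 CPM), the integrin ligand Icam1 (22.2 CPM against 4.08 and 4.97 CPM) and Rac2 and Grk5. Of the upstream cytokines and regulators 1 of 24 was higher, Il1b at 3.91 CPM against 0.469 and 0.175 CPM. The chemokine-cleaving proteases Mmp8, Mmp9 and Mmp12 were higher (3 of 18 matrix and protease partners), and Mmp8 and Mmp9 are also neutrophil markers.

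edgeR called 0 of the 42 genes tested and 0 of all 15482 genes in this comparison. At an unadjusted p under 0.05 it found 5 of these genes (Cxcl13, Cxcr2, Ackr1, Cxcl9 and Ccl22) and 165 genes in all. DESeq2 called Cxcl13 alone among the chemokine genes, and limma-voom called 0. Without wild type library 1 the size rule held for 14 genes (8 higher and 6 lower), and without library 2 for 19, in place of 8.

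**Figure D2:**
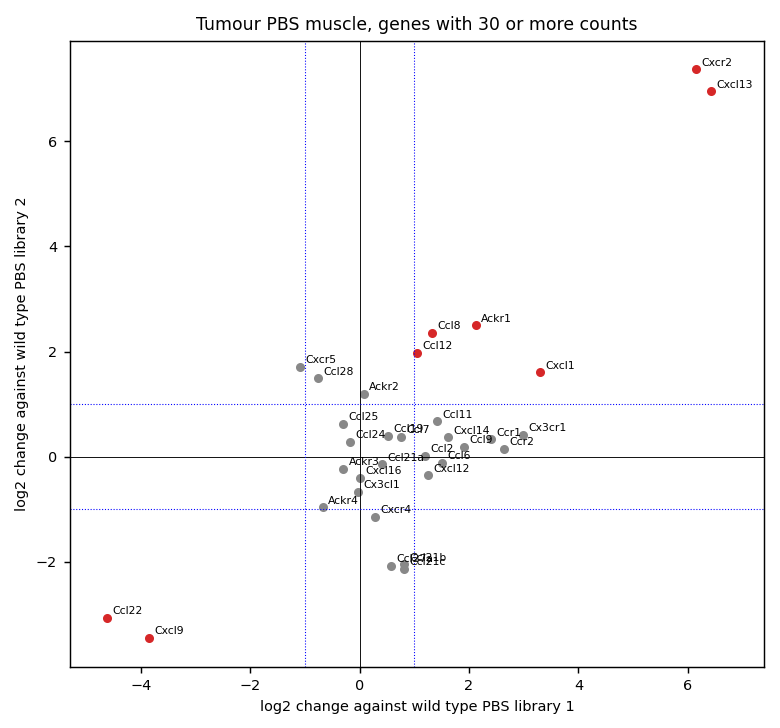
Log2 change of genes in tumour PBS muscle against wild type library 1 (horizontal) and library 2 (vertical), for 33 of the 34 genes with 30 or more counts. Red points are the 8 genes past 2-fold (dotted lines) against both: Cxcl13 and Cxcr2 lie at the top right, Cxcl9 and Ccl22 at the bottom left, and Ccl21b and Ccl21c change side with the library used.

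MDC was compared with PBS in tumour-bearing mice, with 1 library each and both in set B. The PBS library is the same 1 used in the tumour comparison above, so these comparisons are not independent. Its high values of Cxcl13, Cxcr2, Cxcl1, Ccl8, Ccl12 and Ackr1 enter both, which makes lower values with MDC likely. Cxcl13 and Cxcr2 were much lower with MDC, as were 9 further genes that include the monocyte receptors Ccr2 and Cx3cr1 and the ligands Ccl7, Ccl8, Ccl12 and Cxcl1. Lower by size were 11 of 31 genes, where 5.43% of all genes were, and 1 was higher, where 2.02% were. Among the 11, Ccl21b and Ccl21c are near-identical copies with the same counts in both libraries, so they may count the same reads. The median log2 change was -0.64 over the 31 genes and 0.00 over all genes.

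Cxcl13 had 51 counts with MDC and 1028 with PBS, or 2.28 against 30.2 CPM (log2 change -3.69). Cxcr2 had 40 against 396 counts, 1.79 against 11.6 CPM (log2 change -2.66). Ccl12 was at 0.223 against 1.24 CPM and Cx3cr1 at 1.16 against 3.47 CPM. Smaller differences, near 2-fold, were found for Ccr2 (6.39 against 12.9 CPM), Ccl8 (2.81 against 5.85 CPM) and Ccl7 (0.625 against 1.32 CPM). Cxcl1 was at 0.804 against 2.00 CPM, and Ccl21b and Ccl21c each had 61 against 279 counts. Cxcr5, the receptor of Cxcl13, was the 1 higher gene, with 40 against 25 counts. Ackr1 stayed within 2-fold, at 11.8 against 17.6 CPM.

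Neutrophil markers were lower with MDC for 14 of 14 genes (47.4 against 368 CPM in sum), macrophage and monocyte markers for 5 of 14 (198 against 378 CPM), dendritic cell markers for 4 of 8 and adipocyte markers for 6 of 7 (491 against 950 CPM). Whether these cells account for any of the chemokine differences was not tested. Of the signalling and adhesion genes 8 of 30 were lower, among them Rac2 (2.68 against 12.6 CPM) and Selp (179 against 983 counts). Il1b was at 0.670 against 3.91 CPM, the only 1 of 23 upstream genes past the rule, and Mmp12, Mmp8, Mmp9 and Ctss were lower among 18 matrix and protease partners. edgeR called 0 genes, with 1 chemokine gene (Cxcl13, adjusted p = 1.00) and 38 genes in all below an unadjusted p of 0.05. DESeq2 and limma-voom called 0.

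Tumour MDC muscle was also compared with the wild type PBS pair. Cxcr2 (1.79 CPM against 0.0937 and 0 CPM), Cxcl13 (2.28 CPM against 0.281 and 0.175 CPM) and Ackr1 (11.8 CPM against 3.98 and 3.05 CPM) were higher than in both wild type libraries, and Cxcl9 (0.402 CPM) and Ccl22 (0.0893 CPM) were lower. These are 3 and 2 of 31 genes, where 1.21% and 2.12% of all genes were past the rule. This comparison and the tumour PBS comparison share the wild type pair. Of 28 signalling and adhesion genes Selp and Arrb2 were higher, with Arrb2 at 16.4 CPM against 7.59 and 7.85 CPM, and of 15 interferon genes Irgm2 and Usp18 were lower. Neutrophil markers were higher for 4 of 7 genes and erythroid markers for 3 of 3 (2567 CPM against 331 and 325 CPM in sum), and their part was not tested. Without wild type library 1 the size rule held for 16 chemokine genes, and without library 2 for 11, in place of 5. edgeR called 0 genes, with 6 chemokine genes and 231 genes in all at an unadjusted p under 0.05. DESeq2 called 11 genes, none a chemokine gene, and limma-voom called 0.

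**Figure D3:**
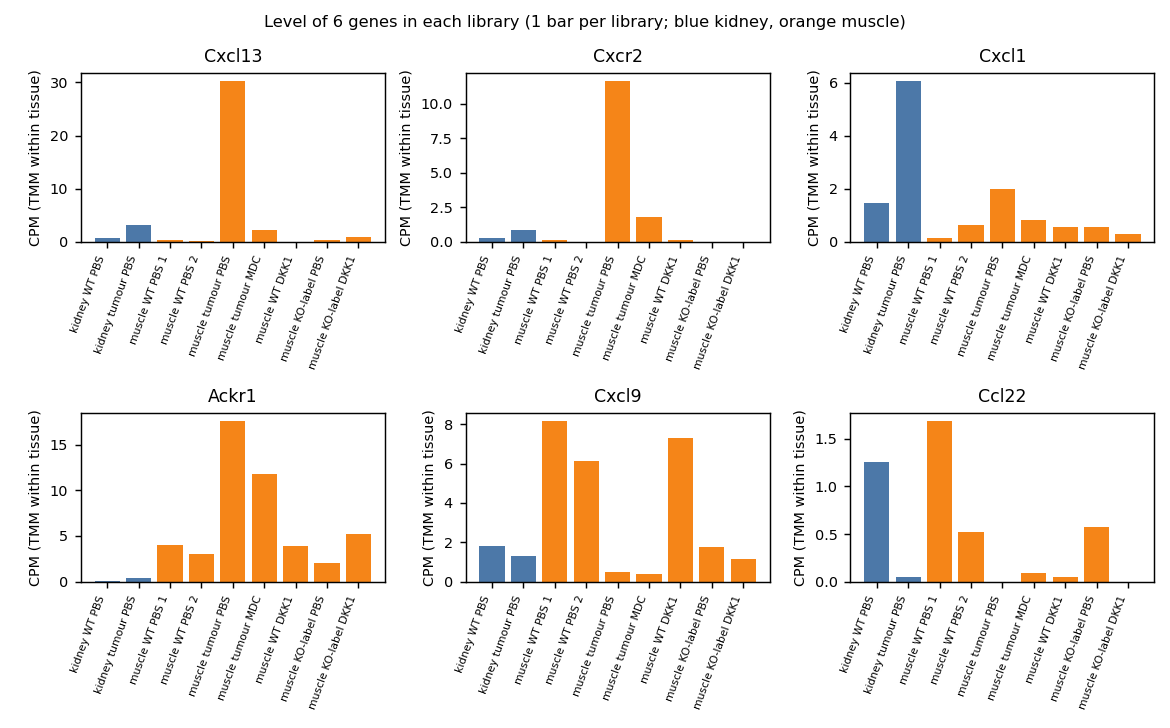
CPM of Cxcl13, Cxcr2, Cxcl1, Ackr1, Cxcl9 and Ccl22 in each library, 1 bar per library, with kidney in blue and muscle in orange. Muscle tumour PBS is the highest muscle bar for Cxcl13, Cxcr2, Cxcl1 and Ackr1, and Cxcl9 is at 6.15 to 8.15 CPM in the 3 wild type muscle libraries and at 0.402 to 1.77 CPM in the other 4.

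Tumour kidney was compared with wild type kidney, with 1 library each and therefore no test. Cxcl1, Cxcl5 and their receptor Cxcr2 were among the genes higher in tumour kidney, and Ccr7, Ccl19, Cxcr6 and Ccl22 among those lower. By size 7 of 36 genes were higher, where 6.97% of all genes were, and 11 of 36 were lower, where 5.46% were. The 11 lower genes include Ccl21a, Ccl21b and Ccl21c, near-identical copies that may share reads. The intervals below are exact and cover counting error only.

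On the neutrophil side, Cxcl5 had 43 counts in tumour kidney and 0 in wild type (at least 13.6-fold higher), and Cxcl1 had 270 against 62 counts (4.12-fold, 3.12 to 5.53). Cxcl3 with 27 against 0 counts and Cxcl2 with 15 against 6 counts pointed the same way on fewer than 30 counts. The promoters of Cxcl1, Cxcl2 and Cxcl3 share the run of letters shown above, and that of Cxcl5 was not searched. Their receptor Cxcr2 had 36 against 11 counts (3.10-fold, 1.54 to 6.75). Neutrophil markers were higher for 7 of 8 genes, with sums of 99.8 and 5.13 CPM, and their part in the result was not tested.

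Ccr1, a receptor of monocytes and neutrophils for Ccl6 and Ccl9 among others, had 232 against 42 counts (5.23-fold, 3.75 to 7.45). Its ligands Ccl6 (2.60 against 2.46 CPM) and Ccl9 (2.04 against 2.30 CPM) were at like levels. Cxcl13 had 140 against 29 counts (4.57-fold, 3.05 to 7.08), and B cell markers summed to 4.64 against 13.6 CPM. Ccl2 had 49 against 20 counts, while its receptor Ccr2 was at 4.26 against 6.06 CPM. Of 14 macrophage and monocyte markers, Cd14 (70.1 against 9.77 CPM), Cd163 and Msr1 were higher and none lower, and their part in the Ccr1 and Ccl2 differences was not tested. Ackr3 was the most abundant gene of the higher group, with 3994 against 1203 counts, 89.5 against 28.5 CPM (3.14-fold, 2.95 to 3.36). Its ligand Cxcl12 was at 103 against 126 CPM. Adipocyte markers were higher in tumour kidney for 6 of 7 genes (1491 against 145 CPM in sum), blood endothelial markers were at 261 against 276 CPM, and their part in the Ackr3 difference was not tested.

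Ccr7 and its ligands Ccl19 and Ccl21 were in the lower group. Ccr7 had 0 counts in tumour kidney and 40 in wild type (at least 14.1-fold lower), Ccl19 had 4 against 52, and Ccl21a had 95 against 233. Ccl21b and Ccl21c both had 260 counts in tumour kidney, against 865 and 883. Ccl22 had 2 against 53 counts. Cxcr6, a receptor of T and NK cell subsets, had 6 against 101 counts, whereas its ligand Cxcl16 was at 119 and 124 CPM. Ccl5 had 14 against 64 counts, Cxcr3 19 against 39, and its ligands Cxcl10 and Cxcl11 63 against 131 and 28 against 61. Cxcl9, the third Cxcr3 ligand, was at 1.28 against 1.82 CPM, within 2-fold.

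T and NK cell markers were lower in tumour kidney for 5 of 5 genes (2.96 against 10.2 CPM in sum), dendritic cell markers for 7 of 9 with 1 higher (944 against 3722 CPM), and Xcr1, the Xcl1 receptor of a dendritic cell subset, was at 0.470 against 2.22 CPM. Their part in the result was not tested. Of 15 interferon genes, Igtp, Gbp4 and Iigp1 were lower and Gbp7 higher. Of 30 signalling and adhesion genes, Itgam, Selp and Rgs2 were higher and Dock2 lower, and of 24 upstream genes the receptors Tnfrsf1a (114 against 48.8 CPM) and Ifngr1 (log2 change 1.20) were higher and Lta lower.

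**Figure D4:**
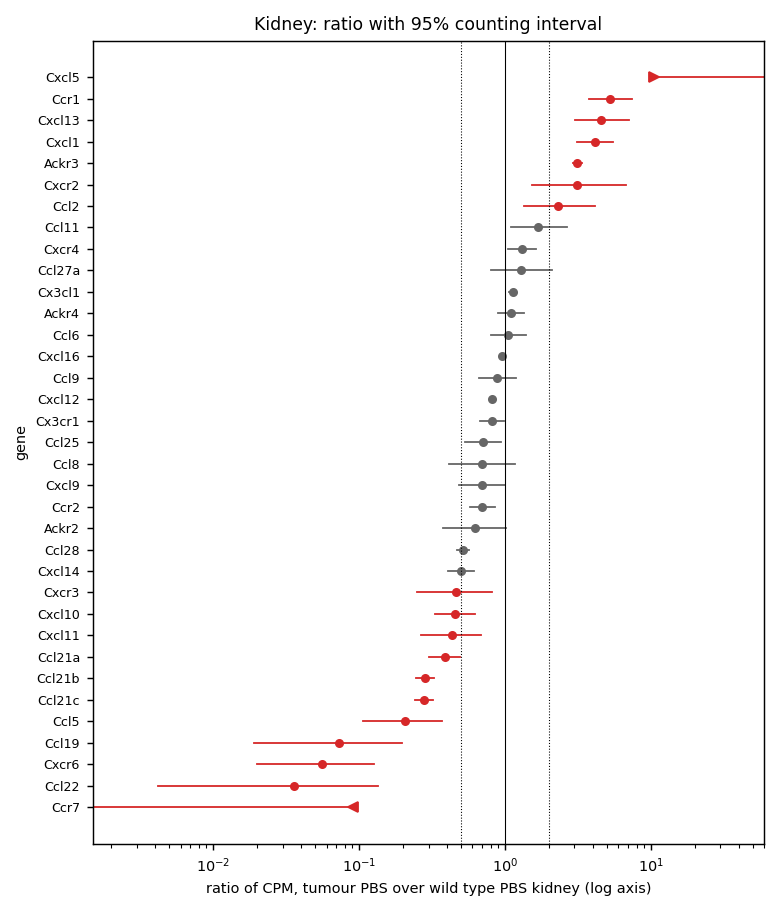
Ratio of CPM in tumour over wild type kidney (log axis) with its exact 95% counting interval, for 35 of the 36 genes with 30 or more counts. Red marks genes past 2-fold (dotted lines), and arrowheads mark the interval bound for Cxcl5 and Ccr7, which had 0 counts in 1 library. Cxcl16 and Cxcl12, with narrow intervals, lie well between the dotted lines.

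DKK1 was compared with PBS in wild type muscle. The ligands Cxcl14, Ccl21a and Cx3cl1 were higher with DKK1 than in both PBS libraries. Ccl22 was lower. These are 3 and 1 of 29 genes, where 3.03% and 0.858% of all genes were past the rule. Cxcl14 had 8582 counts against 879 and 2248, or 220 CPM against 41.2 and 98.1 CPM (mean log2 change 1.79). Ccl21a was at 13.3 CPM against 3.23 and 4.76 CPM and Cx3cl1 at 6.81 CPM against 1.87 and 2.92 CPM. Ccl22 had 2 counts against 36 and 12. Against library 2 alone, which shares set C, some monocyte receptors and ligands were also lower with DKK1. Cx3cr1 was at 0.717 against 2.57 CPM, Ccr1 at 0.512 against 2.57 CPM and Ccr2 at 3.17 against 11.7 CPM. Ccl2 was at 0.896 against 1.57 CPM and Ccl7 at 0.537 against 1.00 CPM. In library 1, of set B, these genes were at 0.375, 0.562, 2.02, 0.656 and 0.750 CPM, so none was past the rule.

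Cxcl12 was highest with DKK1 among the 7 muscle libraries, at 326 CPM, but lay within 2-fold of wild type library 2 (59.0 and 180 CPM in the PBS pair). Its receptor Cxcr4 was at 5.58 CPM, between 3.52 and 9.56 CPM. Cxcl13, the gene that stood out in tumour muscle, had 0 counts with DKK1, and Cxcr2 had 4. Fibroblast markers summed to 1906 CPM against 582 and 1164 CPM and blood endothelial markers to 989 CPM against 323 and 518 CPM, with 2 of 9 and 3 of 10 past the rule. Skeletal muscle markers summed to 80990 CPM against 249300 and 115700 CPM. Their part in the result was not tested. Icam1 (1 of 28 signalling and adhesion genes) and Sdc1 and Mmp2 (2 of 16 matrix and protease partners) were higher. Scaling by total counts alone would move the median log2 change of all genes by 0.48 in this comparison, and the changes above are relative to TMM scaling. With total counts 6 genes were higher and 1 lower. Without wild type library 1 the rule held for 8 genes (4 higher and 4 lower), and without library 2 for 12. edgeR called 0 genes, with Cxcl13 and Cxcl14 and 206 genes in all at an unadjusted p under 0.05. DESeq2 called 4 genes, none a chemokine gene, and limma-voom called 0.

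In the library labelled knockout PBS, 1 gene was higher and 2 lower than in both wild type PBS libraries, of 30 genes, where 1.06% and 1.69% of all genes were. The skin T cell attractant Ccl27a had 108 counts against 5 and 42 (4.46 CPM against 0.234 and 1.83 CPM). Ccl24, an eosinophil attractant (eotaxin-2), had 8 counts against 43 and 33, and Cxcl9 had 43 against 174 and 141 (1.77 CPM against 8.15 and 6.15 CPM). Cxcl12 (77.02 CPM) and Cxcl14 (42.0 CPM) lay between the wild type values. Gpr35 was higher (1 of 8 chemokines and receptors outside the symbol rule), and Rgs2, Ltb and Gbp2 were each the 1 lower gene of their list. Adipocyte markers were lower for 5 of 7 genes, and their part was not tested. Without wild type library 1 the rule held for 8 chemokine genes, and without library 2 for 14, in place of 3. edgeR called 0 genes, with 0 chemokine genes and 182 genes in all at an unadjusted p under 0.05. DESeq2 called 19 genes, none a chemokine gene, and limma-voom called 0.

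Within the libraries labelled knockout, 5 chemokine genes were lower with DKK1 and 3 higher. Lower than with PBS were Cx3cr1 (0.971 against 3.63 CPM), Ccr1 (0.485 against 1.73 CPM), Ccl2 (0.789 against 2.35 CPM), Ccr2 (5.61 against 14.8 CPM) and Ccl7 (0.516 against 1.40 CPM). Higher were Ccl24 (72 against 8 counts), Ackr1 (5.22 against 2.02 CPM) and Ackr3 (47.6 against 22.7 CPM). These are 5 and 3 of 28 genes, where 2.11% of all genes were lower and 3.67% higher. All 5 lower genes were also lower with DKK1 in wild type against library 2 of the same set, as given above. In the libraries labelled knockout, the counts of Ccl2 and Ccl7, ligands of Ccr2, were small, at 26 against 57 and 17 against 34. Of the macrophage and monocyte markers 4 of 14 were lower and 1 higher (346 against 407 CPM in sum), and erythroid markers summed to 622 against 263 CPM, and the part of both in the result was not tested. Was, Pik3cg and Vav1, which carry signals in leukocytes, were lower (3 of 28), as were Xcr1, Gpr35 and Ctss, and Mmp9 was higher. edgeR called 0 genes, with 0 chemokine genes and 48 genes in all below an unadjusted p of 0.05. DESeq2 and limma-voom called 0.

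With DKK1 in both, the library labelled knockout was lower than wild type for 6 of 27 genes and higher for 2, where 11.6% and 3.39% of all genes were. Lower were Cxcl9 (37 against 286 counts), Cxcl10 (6 against 37 counts), Cxcl14 (59.3 against 220 CPM), Cx3cl1 (2.34 against 6.81 CPM), Cxcl12 (128 against 326 CPM) and Ccl21a (5.73 against 13.3 CPM). Ccl27a (121 against 36 counts) was among the higher genes. Cxcl14, Cx3cl1 and Ccl21a are the genes that were higher with DKK1 in wild type, and both comparisons use the wild type DKK1 library. Blood endothelial markers were lower for 9 of 10 genes (334 against 989 CPM in sum), adipocyte markers for 7 of 7 (111 against 1004 CPM) and fibroblast markers for 3 of 9 (911 against 1906 CPM). Their part in the result was not tested. Of 15 interferon genes Iigp1, Gbp2, Usp18 and Gbp4 were lower, beside the interferon regulator Irf1. Selp, Vcam1, Grk5, Icam1 and Gnai2 were lower among 28 signalling and adhesion genes. edgeR called 0 genes, with Cxcl13, Cxcl14 and Cxcl9 and 217 genes in all at an unadjusted p under 0.05. DESeq2 called 6 genes, none a chemokine gene, and limma-voom called 0.

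The difference between the DKK1 changes in the 2 genotype labels was tested as an interaction. edgeR called 0 of 42 chemokine genes and 0 of 15482 genes, and Cxcl13 (26 and 9 counts in the libraries labelled knockout with DKK1 and PBS, 0 with DKK1 in wild type) was the 1 chemokine gene, of 44 genes in all, at an unadjusted p under 0.05. DESeq2 called 3 genes, none a chemokine gene, and limma-voom called 0. Cxcl14, at a log2 change of 1.79 in wild type and 0.50 in the libraries labelled knockout, is thus not shown to respond differently.

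**Figure D5:**
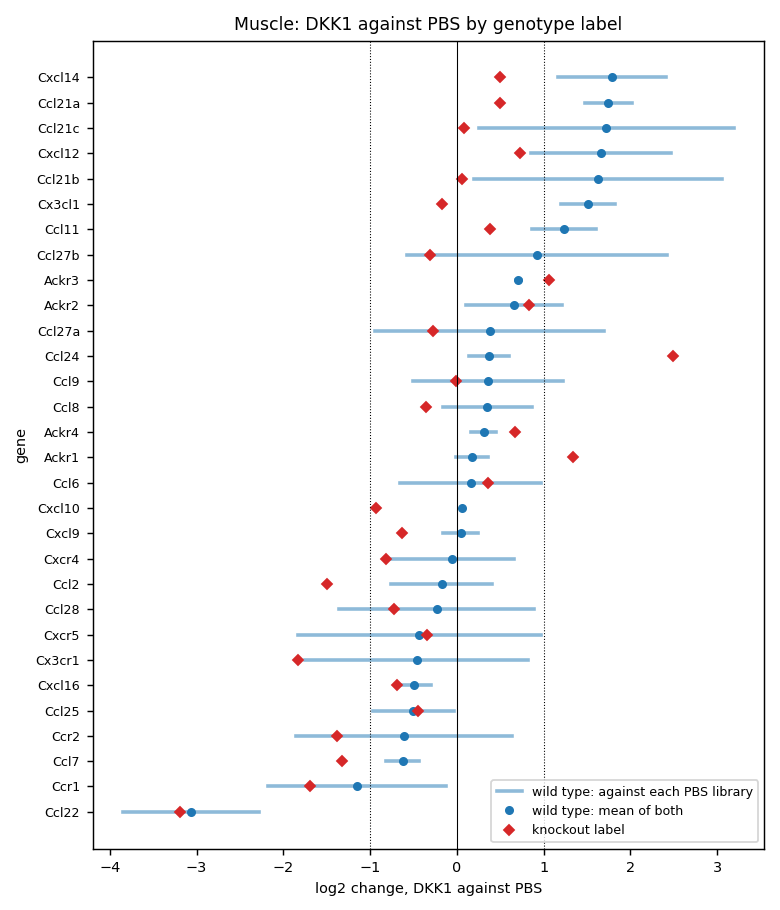
Log2 change with DKK1 for genes with 30 or more counts in either comparison. Blue bars span the changes against the 2 wild type PBS libraries, blue points are their means, and red diamonds are the change between the 2 libraries labelled knockout. Bars are wide where the wild type pair differs, as for Ccl21b and Ccl21c, and the diamonds of Ccl24 and Ackr1 lie right of their bars.

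The remaining genes with 30 or more counts in a library include Ccl25, Cxcl16, Ackr4 and Ackr2. None of these was past the size rule for tumour, MDC, DKK1 or knockout label. Cxcl16 was higher in kidney than in muscle, as given above. Ccl25, a thymus and gut ligand of Ccr9, was at 1.74 to 4.17 CPM over the 7 muscle libraries, Cxcl16 at 2.61 to 6.02 CPM and Ackr4, a scavenger of Ccl19, Ccl21 and Ccl25, at 0.938 to 2.46 CPM. Ackr2, a scavenger of inflammatory CC ligands, was at 0.655 to 2.23 CPM, and the wild type pair spanned more than 2-fold. The other 18 genes, which include Ccl3, Ccl4, Ccl17, Ccl20, Cxcl17, Xcl1, Cxcr1, Ccr3, Ccr4, Ccr6, Ccr8, Ccr9 and Ccr10, stayed under 30 counts in every library, the minimum chosen for the size rule, and were not called in either direction.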

How the data were processed

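The authors deposited 1 table per library with raw counts by gene and RPKM made from those counts, per the file headers. Recomputed RPKM was within 0.000495% of the deposited values, and RPKM served for levels between genes. Per the submitters' processing notes, reads were aligned with HISAT2 2.1.0 to mm10. How reads were counted (program, annotation, strand, reads with several positions) is not given in the sources used here. Gene positions are from the GENCODE M21 annotation of GRCm38, and promoters from RefSeq (44 of 60 genes matched).

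Counts were scaled with TMM, and log2 CPM used a prior count of 2. edgeR 4.0.16 (R 4.3.3) fitted its quasi-likelihood test to the 7 muscle libraries, 1 coefficient per group, for 15482 genes past filterByExpr with a minimum count of 10 (16811 genes over all 9 libraries), and p values were adjusted over all genes tested. The wild type pair gave the 1 residual degree of freedom, and single libraries are assumed to vary like it. DESeq2 1.42.0 and limma 3.58.1 were alternatives. A size rule described single libraries: 2-fold or more with 30 or more counts in a higher library, and both wild type libraries had to be passed when wild type PBS muscle was the reference. A fold against 0 counts uses 3 counts as the limit. Named genes were the 5 largest changes a direction past the size rule, a panel of 20, and up to 3 a direction from other lists. Further genes were named after their values were seen. A few genes counted in the totals are not reported by name or drawn here. The members and lists were chosen with earlier results of these data known.

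edgeR was also run on simulated data for tumour PBS muscle against wild type (15482 genes). Every simulated gene had the same biological coefficient of variation, 0.498 or 0.2 by run. Real genes can differ in this coefficient, so the shares found may not carry over. At 0.2 edgeR found more of the changed genes and called more genes without a change. The counts that follow are from the run at 0.498, the value fitted to the muscle libraries. edgeR found 5 of 67 genes with a 4-fold change, 42 of 67 with 16-fold and 58 of 66 with 64-fold, beside 4 genes without a change.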

Additional observations from a re-analysis of the deposited data

How the results depend on the processing

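No paired analysis was possible because no label ties a library to the mouse of another. Of the chemokine genes in tumour PBS muscle, edgeR called 0, DESeq2 and scaling by total counts 1 (Cxcl13), and edgeR without a filter on low counts 2 (Cxcl13 and Cxcr2). Between tissues, DESeq2 called 9 and limma-voom 1 in place of 5. Leaving out a wild type library asks for 1 fold in place of 2, and the size rule then counted 14 to 19 genes in place of 8 for tumour PBS, 11 to 16 in place of 5 for tumour MDC against wild type, 8 to 12 in place of 4 for wild type DKK1, 8 to 14 in place of 3 for knockout PBS and 22 to 24 in place of 13 between tissues. A minimum of 100 counts left 5 for tumour PBS, 7 of 12 for MDC against PBS, 2 for MDC against wild type, 3 of 8 for knockout DKK1 against PBS and 9 of 18 in kidney. A 3-fold rule left 4 for MDC against PBS, 1 for wild type DKK1, 3 for knockout DKK1 against PBS and 4 of 8 for knockout against wild type with DKK1. Scaling by total counts gave 7 for wild type DKK1. No direction of a gene past the size rule reversed under the scalings, prior count of 0.5 or left-out libraries tried. Cxcl13 in tumour muscle had an edgeR adjusted p of 0.0208 with total-count scaling and 1.00 with TMM factors from all genes (an alternative chosen after seeing the data), and a limma-voom adjusted p of 1.00. Most groups have 1 library, and the minimum of 30 counts is a chosen rule, so genes below it, such as Cxcl3 with 27 against 0 counts in kidney, can differ beyond counting error.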
